A study of Mus musculus with 9 samples.

Results

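LE540, a synthetic antagonist of the retinoic acid receptors, was compared with DMSO in cultured aortic valves of newborn mice. Of the 9 arrays of the series, 6 entered as members, 3 with LE540 and 3 with DMSO, and all 23397 probe sets with a gene symbol, of 28270 rows, were compared. The 3 remaining arrays, from valves given all-trans retinoic acid (ATRA), served to estimate the spread and to test whether LE540 and ATRA differed. All pups were C57BL/6J at postnatal day 1, and each array held RNA from the pooled valves of 5 to 6 pups, cultured on floating filters in DMEM with 10% serum for 48 hours. DMSO was present at 0.001% in the control cultures, ATRA was given at 1 µmol/L in DMSO, and the labels give no dose and no vehicle for LE540. LE540 and its vehicle therefore cannot be told apart where the vehicle was not the DMSO of the controls. The pools count as separate samples per the labels, and p-values measure the spread between such pools.

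Retinoic acid binds nuclear receptors (RARs) that sit on DNA with RXR partners and switch target genes such as Cyp26a1, Rarb and Dhrs3 on when ligand is present. An antagonist occupies the same pocket without activating transcription. Other programmes named here are the integrated stress response, in which a slowed initiation of translation favours the factor ATF4 and its targets in amino acid supply, and the metal response, in which zinc or other metals act through the factor MTF1 on the metallothioneins, small cysteine-rich proteins that bind metals. Heme oxygenase, chaperones and thiol enzymes are induced through further factors, among them NRF2.

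Metallothioneins and targets of ATF4 are described first below, so the promoters of 3 zinc-handling genes and 4 ATF4 targets are shown with the element each factor is known to read. The windows come from RefSeq on GRCm38.p6, run 5′ to 3′ on the strand of the gene from 250 bases before to 50 bases after the annotated start, and were searched on both strands. Capitals in the first set mark the core of the metal response element, spelled TGCGCNC or TGCACNC.
Mt1 (chr8:94178839-94179138, + strand): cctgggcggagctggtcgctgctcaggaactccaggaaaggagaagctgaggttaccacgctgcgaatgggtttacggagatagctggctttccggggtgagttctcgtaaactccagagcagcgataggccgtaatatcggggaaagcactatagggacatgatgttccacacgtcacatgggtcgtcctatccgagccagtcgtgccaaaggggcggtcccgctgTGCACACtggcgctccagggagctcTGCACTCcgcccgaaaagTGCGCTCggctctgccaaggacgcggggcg
Mt2 (chr8:94172368-94172667, + strand): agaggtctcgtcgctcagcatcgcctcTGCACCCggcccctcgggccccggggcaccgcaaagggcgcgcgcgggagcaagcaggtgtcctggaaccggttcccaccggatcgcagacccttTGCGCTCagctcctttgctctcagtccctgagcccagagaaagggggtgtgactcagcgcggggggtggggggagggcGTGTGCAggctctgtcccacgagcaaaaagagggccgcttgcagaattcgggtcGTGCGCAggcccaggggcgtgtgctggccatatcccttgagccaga
Slc30a1 (chr1:191906531-191906830, + strand): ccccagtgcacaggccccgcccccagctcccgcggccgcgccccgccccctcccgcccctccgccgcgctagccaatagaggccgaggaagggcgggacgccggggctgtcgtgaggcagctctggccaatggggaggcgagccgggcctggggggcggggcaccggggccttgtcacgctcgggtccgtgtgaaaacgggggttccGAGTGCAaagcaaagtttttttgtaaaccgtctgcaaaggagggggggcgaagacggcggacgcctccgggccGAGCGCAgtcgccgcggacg
In Mt1 the 3 matches began at positions -23, 3 and 21 from the annotated start, and Mt2 held 4, of which 2 lay on the other strand. Slc30a1, the zinc exporter of the plasma membrane, held 2 matches. Of the 16 zinc-handling genes listed here, 13 had a window, and 9 of their 15 windows (60.0%) held the core, against 25.7% of all 32851 windows. The same core was in 36.4% of 22 windows of ATF4 targets and 36.4% of 11 of cytosolic tRNA synthetases. For enzymes of serine and one-carbon metabolism it was 35.7% of 14, for NRF2 targets 18.5% of 27 and for amino acid transporters 11.1% of 27.

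Capitals in the next set mark the composite element of C/EBP and ATF proteins, spelled TGATGNAA.
Asns (chr6:7693160-7693459, - strand): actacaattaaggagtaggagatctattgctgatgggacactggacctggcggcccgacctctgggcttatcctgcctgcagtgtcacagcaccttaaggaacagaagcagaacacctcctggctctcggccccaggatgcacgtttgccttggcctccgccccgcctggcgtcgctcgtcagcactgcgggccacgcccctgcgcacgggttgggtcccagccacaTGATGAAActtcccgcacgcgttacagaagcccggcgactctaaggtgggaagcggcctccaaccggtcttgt
Chac1 (chr2:119350992-119351291, + strand): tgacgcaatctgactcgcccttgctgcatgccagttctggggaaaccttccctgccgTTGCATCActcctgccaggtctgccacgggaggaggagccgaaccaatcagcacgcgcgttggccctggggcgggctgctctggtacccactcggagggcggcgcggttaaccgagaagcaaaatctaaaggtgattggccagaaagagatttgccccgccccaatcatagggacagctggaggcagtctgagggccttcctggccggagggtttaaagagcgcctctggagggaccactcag
Atf3 (chr1:191183284-191183583, - strand): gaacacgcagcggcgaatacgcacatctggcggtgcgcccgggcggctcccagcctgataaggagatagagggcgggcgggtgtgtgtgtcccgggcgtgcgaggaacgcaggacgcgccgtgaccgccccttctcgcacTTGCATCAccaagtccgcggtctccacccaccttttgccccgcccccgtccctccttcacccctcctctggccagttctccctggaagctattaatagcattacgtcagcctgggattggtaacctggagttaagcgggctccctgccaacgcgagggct
Trib3 (chr2:152344011-152344310, - strand): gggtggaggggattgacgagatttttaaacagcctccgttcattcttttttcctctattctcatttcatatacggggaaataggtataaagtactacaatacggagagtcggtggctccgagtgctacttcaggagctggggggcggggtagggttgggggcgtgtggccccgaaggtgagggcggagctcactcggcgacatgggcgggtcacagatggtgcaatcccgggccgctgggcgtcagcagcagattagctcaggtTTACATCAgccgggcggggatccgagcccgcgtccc
Each of these 4 windows held 1 match, on the gene's own strand in Asns and on the other strand in Chac1, Atf3 and Trib3. Among 20 ATF4 targets 18 had a window, and 9 of 22 windows (40.9%) held the element, against 3.97% of all windows. The 4 genes shown are among those with a match. Ddit3, the 1 gene of this ATF4 target list that passed below, had a window but no match to this element. For cytosolic tRNA synthetases the share was 36.4% of 11 windows, and for enzymes of serine and one-carbon metabolism 0 of 14 windows held it. An antioxidant response core (TGANNNNGC), which can overlap the composite element at its first 3 letters, was found in 41.3% of all windows and in 55.6% of 27 windows of NRF2 targets. It was in 73.3% of the 15 zinc-handling windows. For ATF4 targets, cytosolic tRNA synthetases, one-carbon enzymes and amino acid transporters the share was 36.4% to 59.3%. A match is a description of letters in a window and was not tested for binding.

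The labelled tissue was checked against markers. All 15 markers of valve interstitial cells lay above the median of all intensities, led by Mgp, and 15 of 20 endothelial markers did too. All 19 cardiomyocyte markers were above that median as well, with Tnnt2 brightest at a mean intensity of 7711 over the 9 arrays, so RNA of heart muscle was present. LE540 replicate 1 stood apart from every other array on the first principal component (63.7, the others -21.5 to 13.9) and had the lowest weight, 0.302, in a fit that weights arrays by their spread. Xist, which is expressed from the inactive X of female cells, had an intensity of 61.6 in it, against 1361 and 1652 in the other LE540 pools and 2294 to 2903 in the DMSO pools, and the labels do not give the sex of the pups. Results are therefore given with all 3 LE540 arrays and for replicates 2 and 3 alone. Leaving out replicate 1 does not level the sex mix of the pools, since every LE540 pool read below every DMSO pool for Xist. A mean score of Y-linked genes was 1.04, -1.52 and 1.25 in LE540 replicates 1, 2 and 3, and -1.08, -2.50 and 0.16 with DMSO. Sex mix and LE540 therefore cannot be told apart in these differences. In ATRA replicates 1, 2 and 3 Xist read 85.7, 1393 and 326, and the Y-linked score was 1.33, -0.03 and 1.35.

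In limma, 7 probe sets, each of 1 gene, passed the test, and all of them rose. They are 0.0299% of the probe sets tested, at a Benjamini-Hochberg adjusted p under 0.1, with 0 lower. The lowest adjusted p was 0.0917, and 1046 probe sets were higher (4.47%) and 1014 lower (4.33%) at an unadjusted p under 0.05. The count was 0 without any 1 of the DMSO arrays, 1, 98 and 297 when LE540 replicate 1, 2 or 3 was left out, and 12, 1 and 0 when ATRA replicate 1, 2 or 3 was. With a score of Y-linked genes as a covariate 8 passed, 5 higher and 3 lower, and of the 7 only Mthfd2 was among them. The 7 genes were the metallothioneins Mt2 and Mt1, Hmox1, Nnmt, Ddit3, Mthfd2 and Slc6a9. In each of them every LE540 array lay above every DMSO array, a separation seen upward in 6.74% and downward in 5.86% of all probe sets tested. Intensities below are linear values listed from replicate 1 to 3, a numbering with no order, and changes are log2 LE540 minus DMSO, each with its standard error (SE) from limma.

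Of all probe sets tested, Mt2 had the largest log2 rise. It read 758, 396 and 606 with DMSO and 10311, 4997 and 6561 with LE540. Its change was 3.62 (SE 0.39, adjusted p = 0.0917 in limma), which is 12.3-fold, with a 95% confidence interval of 2.72 to 4.52. Mt1, next to Mt2 on chromosome 8 and of the same function, read 1139, 530.4 and 944 with DMSO and 5249.98, 3449 and 4582 with LE540, a change of 2.39 (SE 0.29). Replicate 1 was the brightest LE540 array for both genes, yet replicates 2 and 3 alone kept 0.922 of the change in Mt2 and 0.944 in Mt1. Slc30a1 did not pass (adjusted p = 0.206 in limma) at 287, 343 and 296 against 509, 493 and 574, a difference of 0.77 (SE 0.13), and here too the groups did not overlap. The zinc importer Slc39a10 read 871, 762 and 604.5 with DMSO and 225, 390.5 and 293 with LE540. Its difference of -1.32 also missed the threshold (adjusted p = 0.206 in limma). The rest of the 16 zinc-handling genes lay between -0.12 and 0.40, including Mtf1 itself at 0.02 and the brain-type metallothionein Mt3 at -0.12, so that the list median was 0.11 against 0.02 over all genes.

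Hmox1, which encodes the inducible enzyme that degrades heme, read 1083, 1139 and 832 with DMSO and 4150.3, 2514 and 3405 with LE540, a rise of 1.70 (SE 0.19). Nnmt, the methyltransferase that consumes S-adenosylmethionine to methylate nicotinamide, had the tightest replicates of the 7 (154, 150.1 and 143 against 414, 391.7 and 426). Its rise was 1.46 (SE 0.17), of which 0.996 was kept when replicate 1 was left out. Slc6a9, the glycine transporter GLYT1, read 192, 238 and 188 with DMSO and 748, 433 and 686 with LE540, a rise of 1.56 (SE 0.20).

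**Figure D1:**
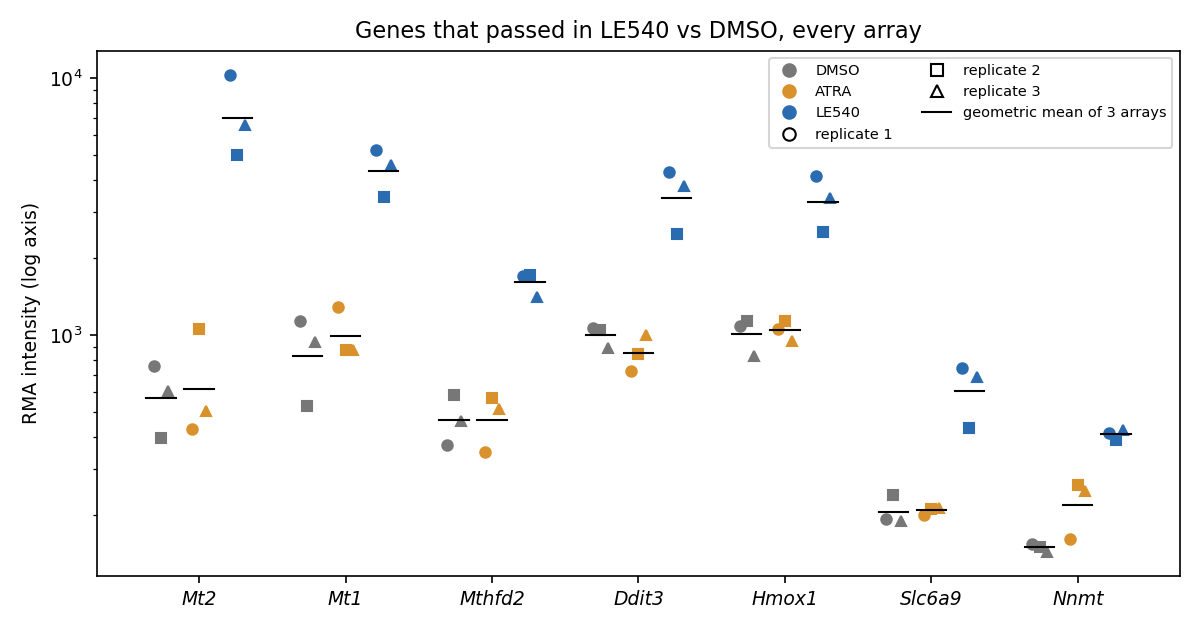
RMA intensity (log axis) of the 7 genes that rose with LE540, with each point 1 array, shapes for replicate number and bars for the geometric mean of 3 arrays. All LE540 points lie above all DMSO points of the same gene, while the ATRA points overlap the DMSO points in 6 genes and lie above them in Nnmt.

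Genes listed here as ATF4 targets of the integrated stress response were higher in LE540, and 1 of this list, Ddit3, passed. Genes of one-carbon metabolism and amino acid transport, with Mthfd2 and Slc6a9 that passed, were counted in lists of their own below. Ddit3 encodes CHOP, a transcription factor induced by ATF4, and read 1068, 1049 and 888 with DMSO and 4292, 2476 and 3787 with LE540, a rise of 1.78 (SE 0.21). All 20 measured genes of the ATF4 target list were higher in LE540. In 18 of them the groups did not overlap (6.74% upward among all probe sets), with Nupr1 and Ddit4 the exceptions. The list median was 0.96, against 0.02 over all genes. By array the median was 1.09, 0.60 and 1.02 for LE540 replicates 1, 2 and 3, so the shift was present in each pool and smallest in replicate 2.

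Among members that missed the threshold, Asns, the enzyme that makes asparagine, read 524, 856 and 486 with DMSO and 2723, 2143 and 3079 with LE540, a difference of 2.12 (SE 0.30, adjusted p = 0.122 in limma). Replicates 2 and 3 kept 0.987 of it. Chac1, which breaks down glutathione, read 199.7, 199 and 175 against 1251, 613 and 546, a difference of 1.97 with the same adjusted p of 0.122 (limma). When LE540 replicate 1 was left out, Chac1 was the 1 probe set that passed in limma (adjusted p = 0.0117), at 1.60. Eif4ebp1, a repressor of cap-dependent translation, stood at 1.16 (SE 0.18) and Atf4 itself at 1.12 (SE 0.26), with intensities of 552, 808 and 567 against 1629, 1248 and 1274. Atf3, another stress-induced transcription factor, leaned on replicate 1: it read 171, 195 and 128 with DMSO and 1549, 239 and 556 with LE540, and 0.627 of its difference of 1.86 was left without that array. Trib3, an inhibitory pseudokinase, did not, at 125.4, 99.5 and 105 against 173, 155 and 237.

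**Figure D2:**
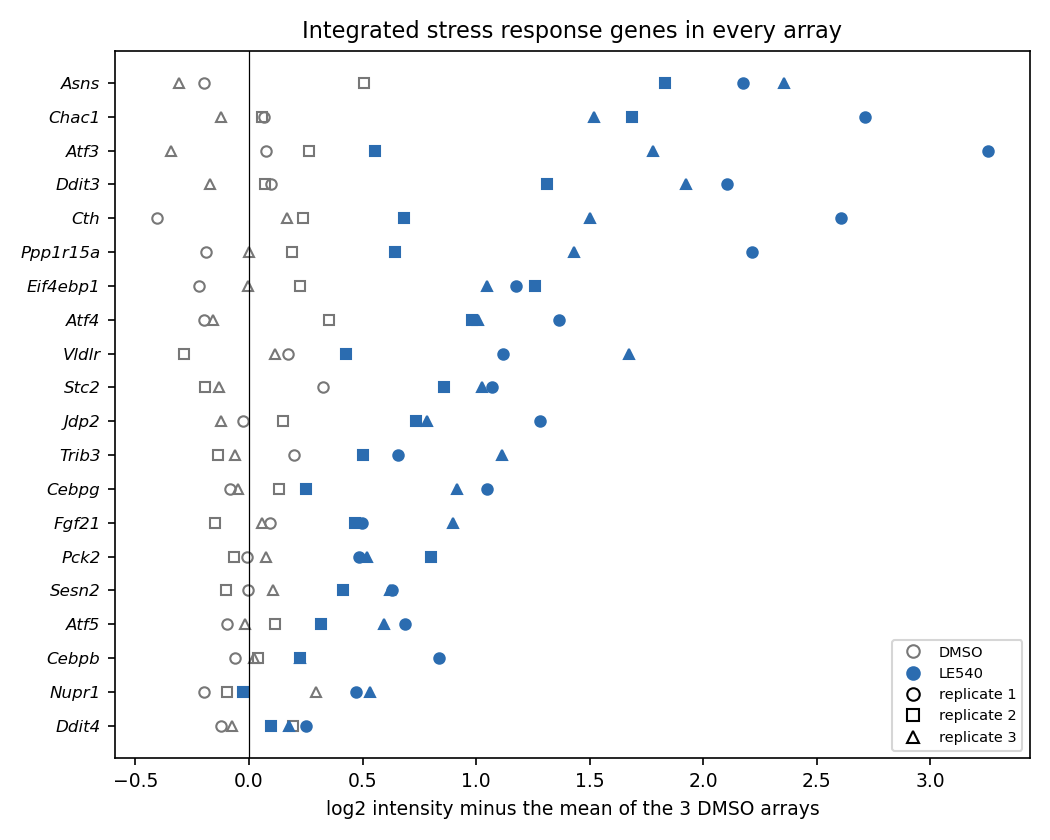
Log2 intensity of the 20 ATF4 targets in each of the 6 arrays, relative to the mean of the 3 DMSO arrays (grey open symbols DMSO, blue filled symbols LE540, shapes for replicate number). All LE540 symbols lie right of all DMSO symbols in 18 genes, with Asns at the top (2.12) and Ddit4 at the bottom (0.18), and replicate 1 lies far right of the other pools in Atf3 and Cth.

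Serine and mitochondrial folate metabolism, which feeds glycine and one-carbon units into nucleotide synthesis, was higher in part of its members. Mthfd2, the mitochondrial methylenetetrahydrofolate dehydrogenase, passed at 374, 582 and 464 with DMSO and 1701, 1717 and 1408 with LE540, a rise of 1.78 (SE 0.22), of which 0.976 remained without replicate 1. Its mitochondrial neighbour in the pathway Shmt2 read 399.6, 599 and 409 against 1589.8, 1452 and 1196 (1.61, adjusted p = 0.122 in limma). Psat1 and Phgdh, on the route to serine, differed by 1.07 and 0.93, and Aldh1l2 by 1.75. Of 14 measured enzymes 11 were higher, 8 with no overlap (6.74% upward among all probe sets). The median was 0.69, with 0.51, 0.72 and 0.72 in replicates 1, 2 and 3. The cytosolic enzymes Shmt1 (0.09), Aldh1l1 (0.05) and Mthfd1 (-0.33) stood near or below 0.

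Cytosolic tRNA synthetases, which charge tRNAs with amino acids, were higher in 16 of 18 measured genes, with a median of 0.59 and 0 passing. In 11 of them the groups did not overlap (6.74% upward among all probe sets). Sars, the synthetase for serine, differed by 1.18 (SE 0.22) and Nars, for asparagine, by 0.76 (SE 0.11), at 2120, 2336 and 2206 with DMSO and 3905, 3334 and 4100 with LE540. The 16 mitochondrial tRNA synthetases had a median of -0.01, with 7 higher and 0 groups without overlap. The difference between the cytosolic and the mitochondrial set was not tested.

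Amino acid transporters were divided. Beside Slc6a9, which passed, 5 more of 22 genes were above DMSO with no overlap (6.74% upward among all probe sets). Slc7a5 and Slc3a2, the subunits of the large neutral amino acid exchanger, differed by 1.83 (SE 0.31) and 1.65 (SE 0.31). Slc7a3, an arginine and lysine transporter, read 111, 113 and 106 with DMSO and 1369, 280.4 and 592 with LE540, and its difference of 2.47 kept 0.764 without replicate 1. The cystine carrier Slc7a11 differed by 1.76 but its groups overlapped, since DMSO replicate 2 (1039) lay above LE540 replicate 2 (989). Slc36a4 stood at -0.88 with no overlap, and the list median was 0.15.

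Chaperones of the endoplasmic reticulum, the targets of the other unfolded protein branches, had a median near that of all genes. Of 22 measured, 13 were higher, and the median was 0.11. With no overlap, 3 were above and 3 below DMSO (6.74% and 5.86% among all probe sets). Herpud1 differed by 0.75 and Xbp1 by 0.49, both short of the threshold, while Dnajc3 stood at -0.25.

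NRF2 targets were higher in 20 of 25 genes with a median of 0.28, and Hmox1 was the member that passed. Sqstm1, the autophagy receptor p62, read 995, 1158 and 1279.6 with DMSO and 3795, 2129 and 2191 with LE540, a difference of 1.195 of which 0.773 remained without replicate 1. Nqo1, a classical NRF2 target, differed by 0.52 with overlapping groups (adjusted p = 0.631 in limma). The ferritin light chain Ftl1 differed by 0.45, and 4 members in all were above DMSO with no overlap (6.74% among all probe sets). The 12 heat shock genes had a median of 0.18, and of 0.20 without replicate 1. Single members differed in how far that array carried them. Hspb1, a small chaperone, read 277, 508 and 350.2 with DMSO and 2820, 531 and 871 with LE540, and Hspb8 and Cryab kept 0.574 and 0.485 of their differences of 0.98 and 0.72 without that array. Of the 9 genes of the aryl hydrocarbon receptor pathway 4 were higher, and its main target Cyp1a1 lay at 41.7 to 48.0 with DMSO and 51.2 to 57.9 with LE540, intensities below the lower quartile of all values (59.4).

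Immediate early genes were higher in 16 of 21 with a median of 0.25, and 0 passed. With no overlap, 4 were above DMSO (Jun, Egr3, Klf4 and Klf6), against 6.74% upward among all probe sets. Among cytokines and inflammatory genes, Ptgs2, the inducible cyclooxygenase, differed by 1.84 but varied among the controls (442, 1091 and 159 against 2350.5, 1204 and 1241). Cxcl12, a chemokine of stromal cells, read 627, 536 and 630.1 with DMSO and 113, 319 and 337 with LE540, a difference of -1.38 that kept 0.626 without replicate 1.

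Among retinoid targets no gene passed in LE540 against DMSO. Of 18 measured targets 0 passed, 11 were higher, and the median was 0.08, against 0.32 for ATRA minus DMSO, which shares the DMSO arrays. Rarb, the receptor gene with a retinoic acid response element in its own promoter, read 359, 147 and 212 with DMSO and 88.5, 254 and 153 with LE540, a difference of -0.57 with a 95% interval of -1.62 to 0.49. Dhrs3, a retinaldehyde reductase, stood at -0.38 (-1.16 to 0.39) and Cyp26a1, which degrades retinoic acid, at 0.03 (-0.33 to 0.38). Cyp26a1 was dim with DMSO, at 47.9, 54.6 and 43.8, below the lower quartile of 59.4. Tgm2, transglutaminase 2, differed by 0.14 (-0.11 to 0.40), Stra6 by 0.06 and Crabp2 by 0.19. A missed threshold does not show that LE540 and DMSO acted alike.

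The direct contrast of LE540 with ATRA, in which 141 probe sets passed (0.603%), included several of these genes. LE540 minus ATRA was -3.19 for Dhrs3 (adjusted p = 0.0123 in limma), -2.82 for Rarb (adjusted p = 0.0595) and -2.18 for Tgm2 (adjusted p = 0.000395). The same contrast was -1.22 for Cyp26a1 (adjusted p = 0.0236) and -0.65 for Cyp26b1 (adjusted p = 0.154).

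The homeobox genes Meis1 and Meis2 were the 2 of 18 targets below DMSO with no overlap (5.86% downward among all probe sets). Another 1 target lay above DMSO with no overlap (6.74% upward among all probe sets). Meis2 read 1155, 913 and 899 with DMSO and 264, 703 and 599 with LE540, a difference of -1.03 that did not pass (adjusted p = 0.529 in limma) and that kept 0.58 without replicate 1. Meis1 was alike, at 805, 780.1 and 769 against 197, 513 and 547. Of the 17 receptors, cofactors and retinoid enzymes measured, 5 were higher, for a median of -0.08. With no overlap, 5 lay below DMSO, among them Rara (-0.26) and Rarg (-0.22), against 5.86% downward among all probe sets.

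**Figure D3:**
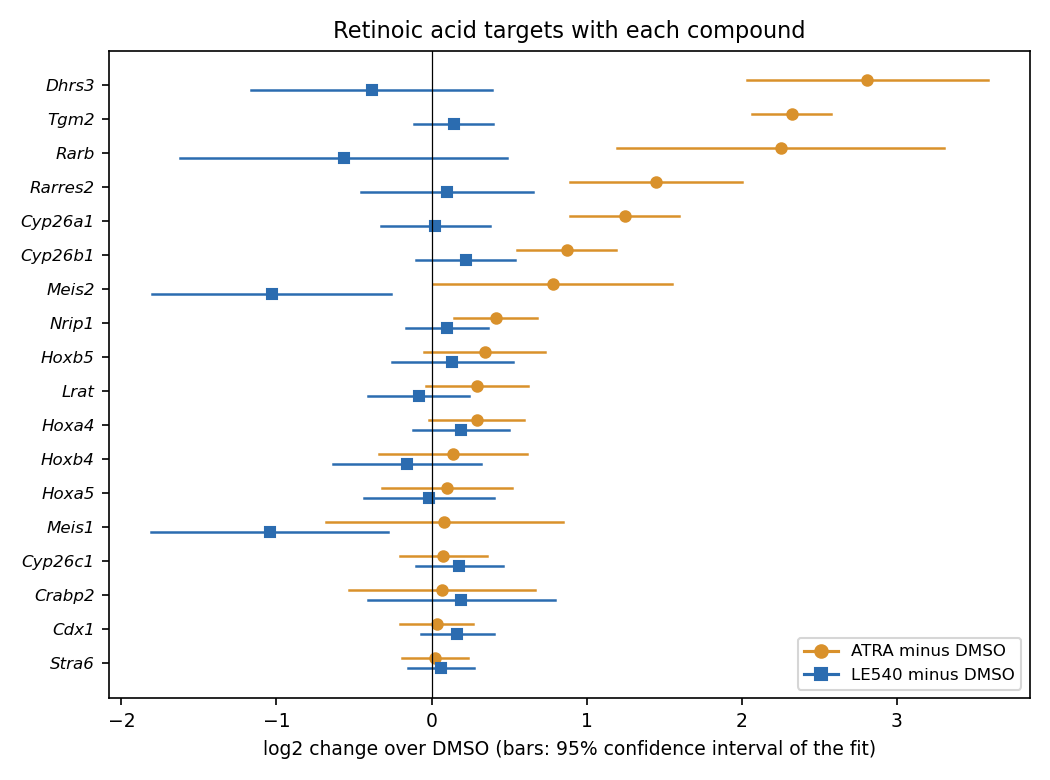
Log2 change over DMSO of the 18 retinoic acid targets with ATRA (orange circles) and LE540 (blue squares), with bars for the 95% confidence interval of the fit; both changes share the 3 DMSO arrays. LE540 intervals include 0 in 16 genes and lie below 0 in Meis1 and Meis2, while ATRA is above 2 for Dhrs3, Tgm2 and Rarb.

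Genes of cell division were lower in LE540, with 0 passing. All 22 mitotic genes were below DMSO, 13 with no overlap (5.86% downward among all probe sets), with a median of -0.75. The size differed between pools, and the median was -1.38 in replicate 1, -0.25 in replicate 2 and -0.96 in replicate 3. These genes were lower with ATRA as well, with a median of -0.39 over the same DMSO arrays. Their summed intensity was 9595 to 11756 with DMSO and 7212 to 9186 with ATRA. With LE540 it was 4161, 9899 and 5466, so replicate 2 lay within the DMSO range. Mki67, the proliferation marker Ki-67, read 380, 501 and 477 with DMSO and 140, 318 and 180 with LE540, a difference of -1.17 (SE 0.27). Ttk and Cenpf, of the spindle checkpoint and the centromere, differed by -1.30 and -1.10 and kept 0.857 and 0.892 without replicate 1. DNA replication genes had a median of -0.35 with 19 of 23 lower, and here replicate 2 stood at 0.08 against -0.49 and -0.65 in the other pools. The summed intensity of the replication genes was, however, highest in replicate 2 of every group. It was 10039, 13120 and 9880 with DMSO and 8674, 11161 and 9002 with ATRA. With LE540 it was 7634, 13145 and 7501. Whether arrays of the same number share a source was not tested. In bulk RNA fewer cells of a kind and less RNA per cell cannot be told apart.

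Lipid synthesis genes were lower in 19 of 21, with a median of -0.41 (-0.70, -0.14 and -0.53 by array). In 6 of them the groups did not overlap (5.86% downward among all probe sets). Scd1, the stearoyl-CoA desaturase, had the most negative change of the named genes with no overlap and an unadjusted p under 0.01, at 344, 347 and 518 with DMSO and 83.8, 120 and 75.2 with LE540, a difference of -2.12 (SE 0.44, adjusted p = 0.323 in limma). Its relative Scd2 differed by -1.68, and replicates 2 and 3 kept 0.972 and 0.905 of the differences of Scd1 and Scd2. Idi1, an isomerase of the mevalonate pathway, has a pair of probe sets, of which the brighter read 126, 194 and 159 against 39.7, 108 and 31.2 (-1.62) and the dimmer 107, 159.8 and 139 against 32.1, 73.3 and 23.8 (-1.80). Abca1, the cholesterol efflux pump and a target of LXR receptors that also pair with RXR, differed by -1.84, at 527, 219 and 403 against 108, 125.04 and 75.9. The regulators Srebf1 (0.01) and Srebf2 (0.07) stood near 0.

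Tgfb3, a TGF-beta ligand, had the lowest p among 26 TGF-beta and BMP genes at 306, 299.9 and 276 with DMSO and 84.3, 149 and 128 with LE540, a difference of -1.33 (SE 0.20, adjusted p = 0.155 in limma). Of these 26 genes 20 were lower, 5 with no overlap (5.86% downward among all probe sets), and the median was -0.18. Markers of valve interstitial cells were lower in 13 of 15 with a median of -0.35, but -0.66, -0.16 and -0.08 by array, and their summed intensity was 32538 to 39309 with DMSO and 21662 to 35431 with LE540, the low end being replicate 1. Mgp, an inhibitor of mineralization, showed this most plainly, at 9440.2, 9007 and 9457 against 4986, 8338 and 8823, so that 0.309 of its difference of -0.38 was left without that array. Pdgfra and Tbx20 kept 0.637 and 0.565 of differences of -1.37 and -0.999. Collagens had a median of 0.00 over 18 genes, with 0 groups apart, and proteoglycans one of -0.30 over 21, which was -0.10 without replicate 1. Of the latter, Ogn differed by -1.68 with overlapping groups, at 296, 144 and 464 against 40.8, 82.8 and 178.

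Lists of cartilage, bone, Wnt, Notch and interferon response genes had medians near 0. Sox9, the transcription factor of cartilage and valve precursors, stood at -0.35 with no overlap (adjusted p = 0.563 in limma), Acan at -0.36 and Col2a1 at 0.04. The 20 cartilage genes had a median of -0.05. With no overlap, 1 was above and 2 were below DMSO (6.74% and 5.86% among all probe sets). The median was 0.04 for 13 bone genes (6 lower) and -0.04 for 28 Wnt genes (18 lower). It was -0.09 for 15 Notch genes (12 lower) and -0.06 for 12 interferon response genes (7 lower). Targets of p53 had a median of 0.20 over 14 genes, by array 0.57, 0.11 and 0.10. Of them, 4 were above DMSO with no overlap (Phlda3, Zmat3, Plk2 and Btg2), against 6.74% among all probe sets. Genes of hypoxia and glycolysis, oxidative phosphorylation and the proteasome had medians of 0.11, 0.12 and 0.09.

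Other cell types gave no marker that passed. Summed cardiomyocyte markers spanned 15351 to 30622 with DMSO and 15352 to 26573 with LE540, endothelial markers 3249 to 5449 and 2988 to 5319, and macrophage markers 3983 to 7357 and 4444 to 6139. Lymphocyte markers summed to 628 to 669 with DMSO and to 634 to 748 with LE540, and 0 of 10 had a mean above the median intensity. Cardiomyocyte markers were higher in 12 of 19, endothelial markers in 10 of 20 and macrophage markers in 5 of 19. With a cardiomyocyte score as a covariate in limma, the log2 changes of the 7 genes that rose were 1.44 to 3.51 and 0 probe sets passed (lowest adjusted p = 0.182), with 2183 at an unadjusted p under 0.05. The part of the other markers in the differences above was not tested.

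LE540 replicate 1 carried more of most differences than the other pools did. Among the 2060 probe sets with an unadjusted p under 0.05, a set that the 3 arrays themselves chose, the median share of the log2 change kept was 0.804 without replicate 1, 1.02 without replicate 2 and 1.18 without replicate 3. Replicate 1 was the LE540 array farthest from the DMSO mean in 65.4% of them, replicate 2 in 25.3% and replicate 3 in 9.27%. Without replicate 1, 968 of the 2060 kept an unadjusted p under 0.05. The choice by p favours probe sets in which the 3 arrays go the same way, and over all 23397 probe sets the median share kept was 0.727 without replicate 1. There replicate 1 was the farthest array in 54.0%, 18778 probe sets kept their sign without it, and in 8598 (36.7%) at most 0.5 of the change was kept. The order of higher and lower probe sets depended on the choice, with medians of 0.824 and 0.777 among the 2060 and of 0.636 and 0.856 among all.

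Counts of large differences showed the same. Over 2-fold, 121 probe sets were higher and 166 lower with all 3 arrays. Without replicate 1, 63 of the 121 (52.1%) and 47 of the 166 (28.3%) were still over 2-fold, against 110 and 147 without replicate 2 and 108 and 160 without replicate 3. Replicate 1 differed over 2-fold from the mean of the other LE540 arrays at 942 probe sets (4.03%), 690 of them lower, where the other 8 arrays did so from their own groups at 151 to 623.

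Some genes differed in 1 or 2 of the LE540 pools. Mustn1, a gene of the musculoskeletal system, read 389, 337 and 740.3 with DMSO and 2823, 347 and 436 with LE540. Ccl5, a T cell chemokine, was high in replicates 1 and 3 (5451 and 2576) and near the DMSO level of 167 to 196 in replicate 2 (238). Car6, a secreted carbonic anhydrase, had the same pattern with 2069.6, 232 and 1972 against 69.3, 185 and 48.9, so its mean difference of 3.52 (SE 0.84, adjusted p = 0.375 in limma) hid a pool close to the controls. In the other direction, the macrophage gene Ms4a7 read 50.9 in replicate 1 and 534 and 456 in replicates 2 and 3, around DMSO values of 155 to 337, and its mean difference was 0.06. Shcbp1, a gene of dividing cells, was at 30.4 and 98.1 in replicates 1 and 3 and at 487 in replicate 2, against 366 to 450.3 with DMSO.

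**Figure D4:**
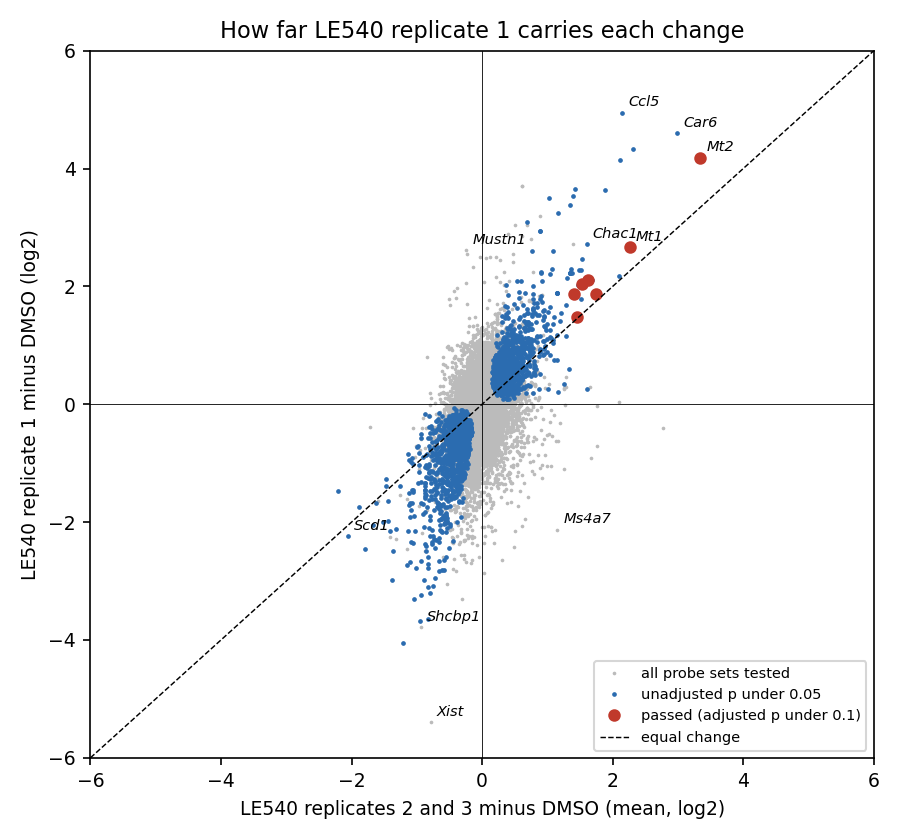
Log2 change over DMSO of LE540 replicate 1 (vertical) against the mean of replicates 2 and 3 (horizontal) for all 23397 probe sets, with those at an unadjusted p under 0.05 in blue and the 7 that passed in red; the dashed line marks equal change. The red points lie near the line, most blue points lie on the side where replicate 1 changed more, and Mustn1, Ms4a7 and Xist lie far from it.

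By contrast, genes with large differences in replicates 2 and 3 alone included several that replicate 1 hardly altered. They were picked among probe sets with no overlap and an unadjusted p under 0.01 over all 3 LE540 arrays. Replicate 1 therefore had to go the same way in each of them. Others of this choice leaned on it more, such as Ccl5 (0.697 kept) and Slc7a3 (0.764 kept). Ccdc152 read 51.3, 45.8 and 32.0 with DMSO and 13.5, 14.3 and 16.9 with LE540, all below the lower quartile of intensities, with 0.956 kept. Klhl32, by the dimmer of its 2 probe sets, kept 0.989 of -1.65, Abca1 1.03 of -1.84 and Asns 0.987 of 2.12. Over the same DMSO arrays, ATRA stood at -1.57 for Ccdc152 (adjusted p = 0.0820 in limma) and -1.25 for Klhl32. It stood at -0.47 for Abca1 and 0.11 for Asns. None of Ccdc152, Klhl32, Abca1 and Asns passed the test with all 3 arrays.

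**Figure D5:**
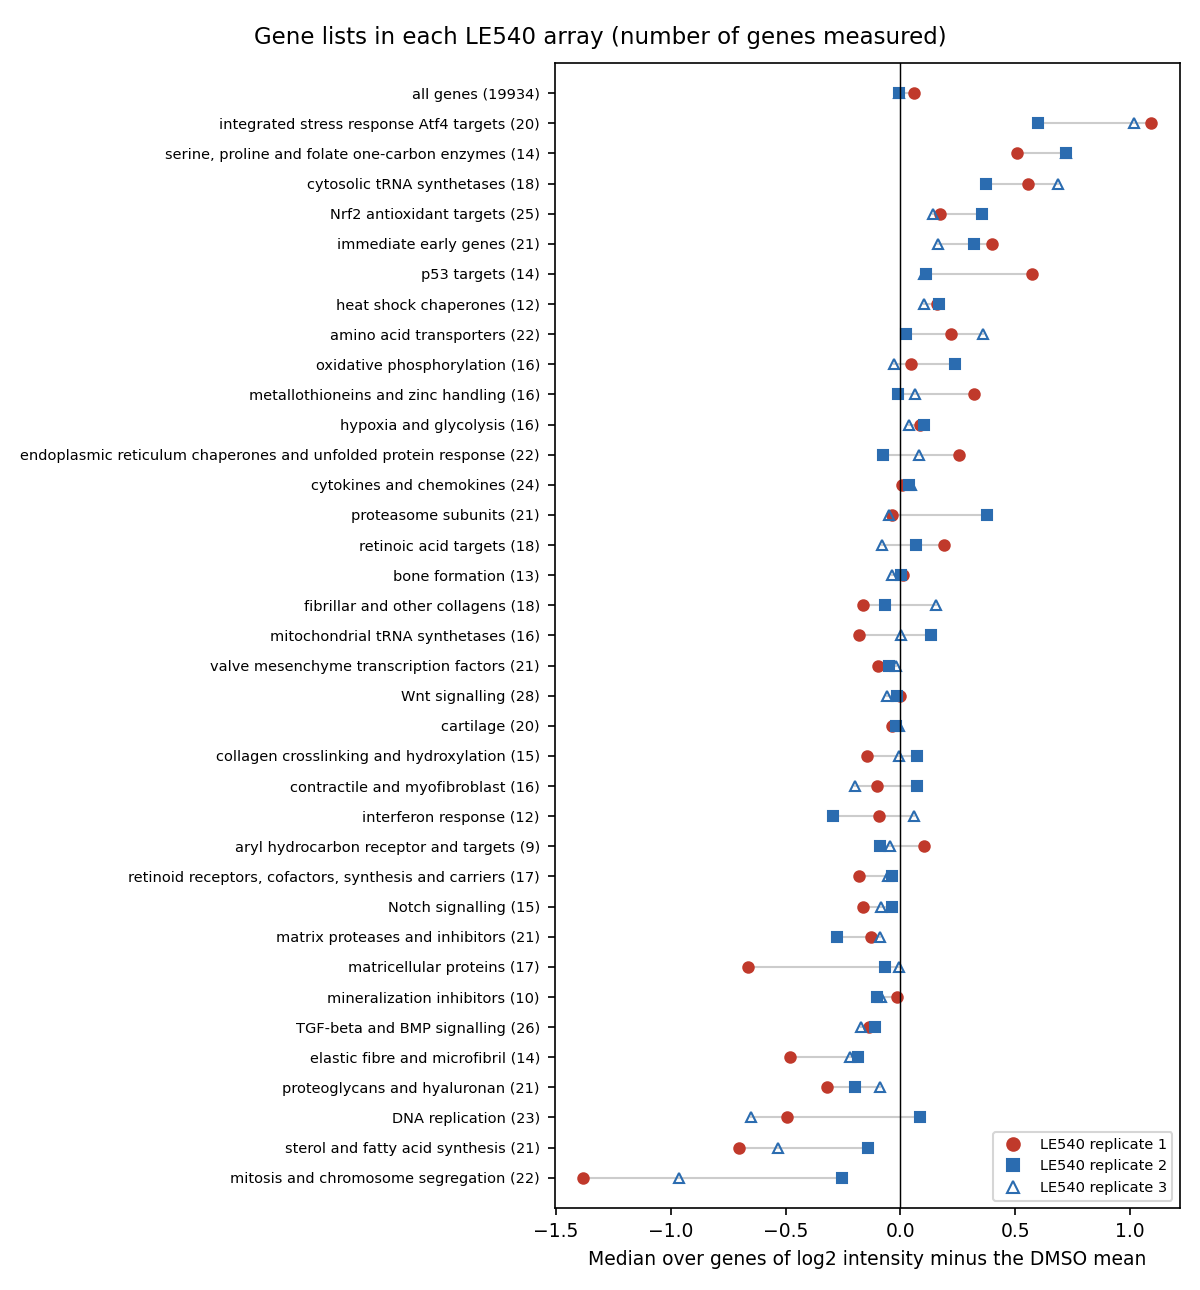
Median log2 intensity minus the DMSO mean over the genes of each list (number measured in brackets) in LE540 replicate 1 (red circles), 2 (blue squares) and 3 (open triangles), with all genes on the top line. ATF4 targets lie right of 0 in every array (1.09, 0.60 and 1.02) and mitotic genes left of 0 in every array (-1.38, -0.25 and -0.96), while DNA replication genes lie on both sides.

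LE540 and ATRA differed for all 7 genes in the direct contrast, with LE540 the higher. The differences ran from 0.91 in Nnmt to 3.50 in Mt2, and the adjusted p from 0.0123 to 0.0927 in limma. Nnmt was the gene in which the compounds were closest, at 161, 261 and 247 with ATRA. Slc30a1 and Slc39a10 also differed between the compounds, by 0.92 (adjusted p = 0.0401 in limma) and -1.73 (adjusted p = 0.0243), and so did Asns at 2.01 (adjusted p = 0.0451) and Chac1 at 1.70 (adjusted p = 0.0537). These contrasts hold no DMSO array but use the same 3 LE540 arrays in which the genes were found high, so they are no independent support for the change against DMSO.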

How the data were processed

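Per the labels' protocols, total RNA of pooled valves was made into amplified cDNA, labelled with biotin using Nugen kits and hybridized, with 1 array per pool. The deposited values are RMA intensity values on a linear scale, made with Affymetrix Expression Console 1.1 per the submitters' processing notes; RMA subtracts background, quantile-normalizes the arrays and summarizes each probe set, which can shrink differences shared by most genes. Array medians were 123.6 to 128.1, and intensities have no read depth, so precision is limited by 3 arrays per group. The annotation and genome build behind the values are not given in the sources used here.

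Log2 of the values was fitted with limma 3.58.1 (R 4.3.3) in a 3-group model over 9 arrays, with two-sided contrasts adjusted by Benjamini-Hochberg over the 23397 probe sets with a gene symbol (21780 with 1 symbol, 1617 with several). A probe set passed at an adjusted p under 0.1, the threshold that the series' design text names, and verbs of change (rose, fell) are kept for such probe sets. In lists, a gene is represented by its probe set with the highest mean (996 of 19934 genes have several), and the 46 lists hold 778 measured entries.

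The share of a change kept without an array is the log2 change without it over that with all 3 LE540 arrays. The named genes are all that passed and the up to 12 largest differences each way with no overlap and unadjusted p under 0.01. Also named are the 4 lowest p of each list and retinoid, zinc and stress genes chosen by name. Added were the up to 8 each way with the largest gap between LE540 replicate 1 and the other LE540 arrays. A last up to 8 each way had the largest change in replicates 2 and 3, with no overlap and unadjusted p under 0.01 over all 3. The members and lists were chosen with earlier results of these data known. Genes outside this rule (Atf3, Trib3, Cth, Nupr1, Ddit4, Mt3, Slc36a4, Egr3, Srebf1, Srebf2, Shmt1, Aldh1l1 and Mthfd1) were named after their values were seen. Replicate numbers were checked for pairing: deviations of LE540 and DMSO arrays of the same number correlated at 0.00946, 0.215 and 0.126. The labels do not say that a number marks a shared litter or day, so the main fit held no block. Yet the second principal component (19.4% of the variance) was lowest for replicate 2 in each group. It was -18.2 with DMSO, -17.9 with ATRA and -33.1 with LE540. Whether arrays of the same number share a source was not tested, and a fit with a block is among the alternatives. Code was tested on simulated data. Alternatives covered arrays in the fit, normalization, filters, priors, weights, covariates and left-out arrays.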

Additional observations from a re-analysis of the deposited data

Results flagged for a closer look

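The 7 genes that rose with LE540 were singled out because LE540 and ATRA differed for each of them in limma's direct contrast, given as log2 LE540 minus ATRA. The difference was 3.50 for Mt2, 2.13 for Mt1, 2.01 for Ddit3 and 1.77 for Mthfd2. It was 1.65 for Hmox1, 1.54 for Slc6a9 and 0.91 for Nnmt. The genes were chosen for high values in the same 3 LE540 arrays that enter this contrast, so the difference is no independent support for their rise over DMSO. In all 7 genes the LE540 arrays lay above every ATRA array.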

How the results depend on the processing

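The count of 7 probe sets passing in limma was sensitive to the setting. It was 1 with the LE540 and DMSO arrays alone, 0 after a further quantile normalization (2193 at an unadjusted p under 0.05), 0 with all rows tested (2469), 12 with 1 probe set per gene, 0 with a cardiomyocyte score as covariate (2183), 8 with a Y-linked score as covariate (5 higher and 3 lower, Mthfd2 the 1 shared with the 7 genes; the others had adjusted p of 0.115 to 0.1996) and 0 at an adjusted p under 0.05 (2060). Leaving out 1 array gave 0 to 297: 0 for each DMSO array and the third ATRA array, 1 for LE540 replicate 1 and the second ATRA array, 12 for the first ATRA array, 98 for LE540 replicate 2 and 297 for LE540 replicate 3. Unadjusted p under 0.05 was met by 1111 to 3537 probe sets in these fits. A replicate block left 1 call, Mt1 (adjusted p = 0.0383 in limma), and 1 of 3 LE540 arrays was closest to the DMSO array of its own number. Why the counts differ was not tested, except that a left-out array also takes a degree of freedom. Across 23 alternatives the log2 change of Mt2 stayed between 3.34 and 3.86 and that of Nnmt between 1.43 and 1.496, with adjusted p of 0.0375 to 0.437 and 0.00623 to 0.438. Of the 7 genes, 5 to 7 still differed from ATRA, and all 7 kept their direction, under each alternative that holds ATRA arrays.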
